A study of Mus musculus with 6 samples.

Results

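The genes examined here make cholesterol or handle sterols in lung alveolar type 2 (AT2) cells, and their RNA was compared between cells with and without a constitutively active BMP receptor. They are 32 of the 24421 genes in the deposited count table, chosen by gene symbol, and comprise 18 enzymes of the synthesis pathway, 4 genes that control the transcription factor SREBP2, 5 genes of esterification and intracellular transport, and 5 genes of the LXR, efflux and lipoprotein receptor branch. All 32 passed the filter on low counts, and 16723 genes were tested in all. AT2CTRL cells came from mice with the genotype Sftpc-CreERT2/+ and R26-tdTomato/+. In AT2CAB mice the second *Rosa26* allele was R26-caBmpr1a, which encodes constitutively active BMPR1a, so that both groups share the tamoxifen-dependent Cre at *Sftpc* and the tdTomato reporter. Each group had 3 libraries, 2 from mice of 12 weeks and 1 from a mouse of 16 weeks (AT2CTRL replicate 2 and AT2CAB replicate 1), made from poly(A) RNA of lineage-labeled cells sorted by FACS. The label reports recombination of the tdTomato allele only, so the AT2CAB libraries may include cells that did not recombine R26-caBmpr1a.

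Cholesterol is built from acetyl-CoA through mevalonate, farnesyl diphosphate and squalene, and then from lanosterol by a series of oxidations and reductions. When sterols in the endoplasmic reticulum are low, SCAP carries SREBP2 to the Golgi for cleavage and the released factor activates the enzymes of the pathway, whereas INSIG proteins hold SCAP back when sterols are high. Oxysterols activate the nuclear receptors LXRα and LXRβ, which raise the sterol exporters ABCA1 and ABCG1. AT2 cells are known for packing cholesterol together with phospholipids into the lamellar bodies from which surfactant is secreted.

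Promoters of 26 of the 32 genes were matched by symbol in RefSeq (GRCm38.p6, the assembly of mm10). The 150 bases directly before the start site are shown for 3 enzymes and for *Insig1*, whose values are given further on, and for *Acat2*, the one enzyme among the matched genes without a CCAAT box. Capitals mark the sterol regulatory element TCACNCCAC, the NF-Y box CCAAT, which reads ATTGG on the other strand, and the E-box CACGTG, searched on both strands.
*Hmgcs1* promoter (chr13:119690201-119690350, forward strand): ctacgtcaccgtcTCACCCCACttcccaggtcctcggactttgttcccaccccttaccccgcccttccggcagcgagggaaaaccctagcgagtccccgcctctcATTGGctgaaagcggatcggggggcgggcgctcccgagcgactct
*Idi1* promoter (chr13:8885456-8885605, forward strand): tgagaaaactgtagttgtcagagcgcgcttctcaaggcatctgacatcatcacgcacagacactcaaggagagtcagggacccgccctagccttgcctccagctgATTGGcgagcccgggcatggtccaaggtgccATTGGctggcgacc
*Msmo1* promoter (chr8:64733579-64733728, reverse strand): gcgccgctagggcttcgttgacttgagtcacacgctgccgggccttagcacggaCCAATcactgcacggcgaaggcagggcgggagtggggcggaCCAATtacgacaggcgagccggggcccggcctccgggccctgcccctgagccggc
*Insig1* promoter (chr5:28071262-28071411, forward strand): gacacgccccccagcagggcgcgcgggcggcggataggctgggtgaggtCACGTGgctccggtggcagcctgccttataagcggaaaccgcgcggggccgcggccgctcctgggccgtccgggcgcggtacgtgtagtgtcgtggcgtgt
*Acat2* promoter (chr17:12960726-12960875, reverse strand): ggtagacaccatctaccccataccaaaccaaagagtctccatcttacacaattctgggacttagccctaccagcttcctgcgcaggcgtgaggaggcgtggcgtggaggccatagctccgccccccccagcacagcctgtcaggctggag
In windows from 250 bases before to 50 bases after the start, a CCAAT box was present for 14 of 15 matched enzymes and for 41.1% of all 27025 genes in the promoter table, counting a gene if any of its promoters matched. The letters TCACNCCAC occurred in 1 enzyme promoter, that of *Hmgcs1*, where they start 137 bases before the start site, and for 1.44% of all genes. Variants of these letters were not searched, so the result cannot show that the other enzymes lack a sterol regulatory element. The Sp1 box GGGCGG was present for 14 of the 15 enzymes, against 38.2% of all genes. CACGTG was found for 6 of the 26 matched genes, *Insig1* among them, against 8.09% of all genes. The DR4 element, a direct repeat that LXR is known to bind, was searched only as an exact repeat. In that form it had no match in the matched windows and one for 4 of all genes. Imperfect repeats were not searched, so the result cannot show that a window, such as that of *Abca1*, lacks a DR4 element. The matches of all these motifs describe the letters of the windows and are not evidence of binding.

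Libraries held between 21554249 and 28440227 counts, so that the floor of 3 counts corresponds to between 0.105 and 0.139 CPM by library size, which covers counting error only. Elsewhere CPM is the count relative to the library total after correction by TMM, a scaling factor per library. The 4 genes of the Y chromosome (*Eif2s3y*, *Kdm5d*, *Uty* and *Ddx3y*) had 3935 counts in AT2CTRL replicate 1 and 4494 in AT2CAB replicate 3, and 0 in the other 4 libraries. Summed AT2 markers ranged from 112545 to 127235 CPM in AT2CTRL and from 97511 to 107886 CPM in AT2CAB, and all 8 were present in every library. Only 1 of the 8 had a log2 fold change (AT2CAB over AT2CTRL) above 0. With edgeR 3 were lower at an unadjusted p under 0.05, and 0 were called. The BMP response genes *Id1*, *Id2*, *Id3*, *Smad6* and *Smad7* summed to 329, 309 and 275 CPM in AT2CTRL and to 765, 1024 and 1717 CPM in AT2CAB replicates 1, 2 and 3, and 3 of the 5 were called higher. AT2CAB replicate 3 thus had the highest BMP response of all libraries.

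Most sterol genes had lower mean levels in AT2CAB than in AT2CTRL cells, but the 3 libraries per group did not separate any of them past the threshold. With edgeR's quasi-likelihood test, 0 of the 32 genes were called (a fold change over 2 with an adjusted p under 0.05), where 0.239% of all genes tested were called in either direction, 0.227% higher and 0.0120% lower. On the adjusted p alone the count was also 0 of 32, against 0.251% of all genes. DESeq2 called 0 of the 32 with the fold threshold and 1, *Abca1*, on the adjusted p alone, against 1.06% and 2.10% of the genes to which it gave an adjusted p. At an unadjusted p under 0.05, 8 genes were lower (*Acat2*, *Idi1*, *Fdft1*, *Msmo1*, *Insig1*, *Insig2*, *Soat1* and *Npc2*) and 2 were higher (*Abca1* and *Abcg1*), against 5.05% and 4.62% of all genes. The 3 AT2CAB values lay below all AT2CTRL values for 7 of the 32 genes and above them for 2, where 10.1% of all genes lay below and 7.0% (1171 of 16723) lay above. The log2 fold change (AT2CAB over AT2CTRL) was below 0 for 25 genes and above 0 for 7, with a median of -0.37, whereas the median of all genes tested was -0.0096 and 51.2% of them were below 0. Adjusted p-values of the 32 genes ran from 0.23 to 0.985. With 3 libraries against 3, the smallest two-sided p that an exact permutation test of 1 gene can reach is 0.1.

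**Figure D1:**
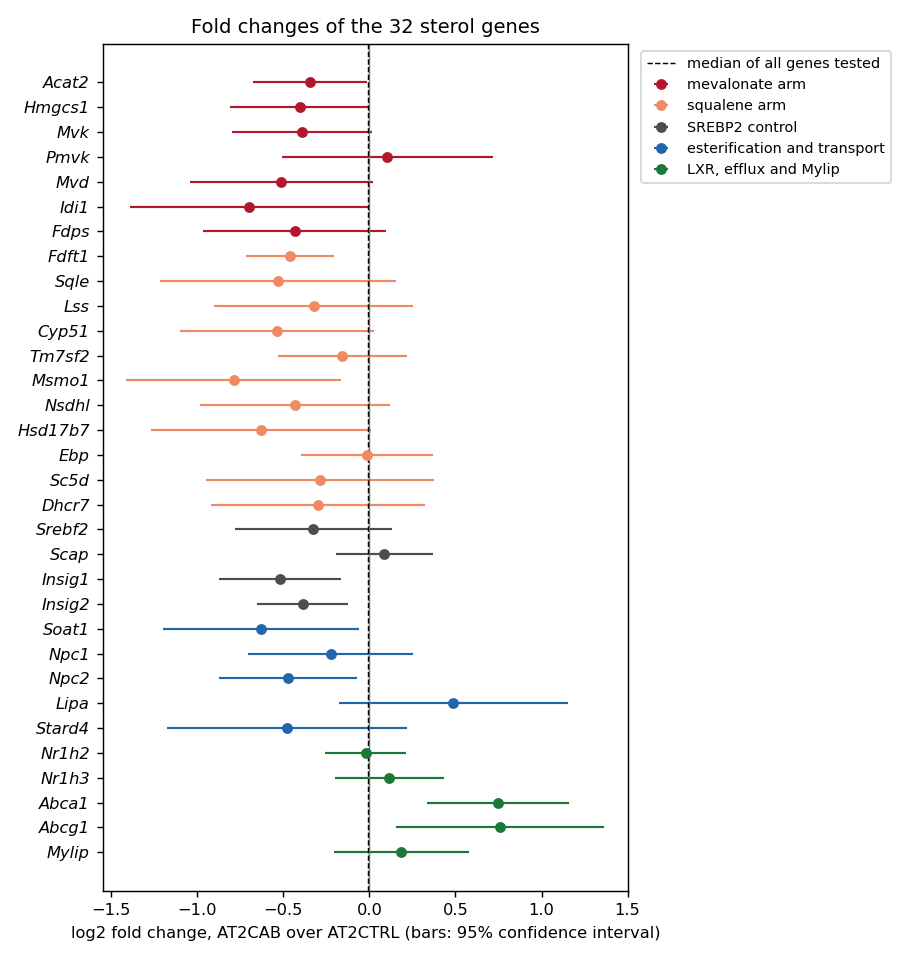
Log2 fold change (horizontal axis, AT2CAB over AT2CTRL) of each of the 32 genes, colored by role, with bars for the 95% confidence interval from edgeR and a dashed line at the median of all genes tested. Of the 18 enzymes 17 lie left of 0, while *Abca1* and *Abcg1* lie right of 0 with intervals that do not reach it before adjustment.

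The 7 genes of the mevalonate arm had a median log2 fold change of -0.41, and 6 of them were below 0. *Acat2*, the cytosolic thiolase of the first step (chr17:12943042-12960725 in mm10), had 139.9, 109 and 127 CPM in AT2CTRL and 114, 89.5 and 91.8 CPM in AT2CAB replicates 1, 2 and 3, a log2 fold change of -0.35 ± 0.14 (SE, adjusted p = 0.495). One AT2CAB library lay within the AT2CTRL range and the other two below it. *Hmgcs1*, the cytosolic HMG-CoA synthase, was the one of the 15 matched enzymes with the exact letters TCACNCCAC in its promoter window. It had 229.6, 303 and 332 CPM in AT2CTRL and 237, 237 and 179.6 CPM in AT2CAB. Its log2 fold change was -0.41 ± 0.18 (SE, adjusted p = 0.518). AT2CTRL replicate 1 was below 2 of the AT2CAB libraries, so the groups overlapped. For *Idi1*, the isopentenyl diphosphate isomerase, the values were 67.3, 106 and 96.6 CPM against 74.5, 60.5 and 31.3 CPM, and the log2 fold change was -0.70 ± 0.30 (SE, adjusted p = 0.509). AT2CAB replicate 3 had the lowest *Idi1* value, and AT2CTRL replicate 1, the lowest control, lay below AT2CAB replicate 1. Without AT2CAB replicate 3 the log2 fold change was -0.26 for *Acat2*, -0.25 for *Hmgcs1* and -0.38 for *Idi1*. Within the 4 libraries without Y-linked reads it was -0.18, -0.39 and -0.55.

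Mevalonate kinase (*Mvk*) and mevalonate diphosphate decarboxylase (*Mvd*) were below every AT2CTRL value in all 3 AT2CAB libraries. For *Mvk* this separation was narrow, with 46.2, 44.1 and 50.7 CPM in AT2CTRL and 44.0, 36.9 and 26.9 CPM in AT2CAB (log2 fold change -0.39 ± 0.18, adjusted p = 0.533). *Mvd* had 57.5, 56.9 and 70.4 CPM in AT2CTRL and 53.0, 49.2 and 27.6 CPM in AT2CAB (log2 fold change -0.51 ± 0.23, adjusted p = 0.53). In both genes AT2CAB replicate 3 was furthest from the controls. *Fdps*, the farnesyl diphosphate synthase, was the most abundant enzyme per length in control cells, at 158 ± 10.5 CPM per kilobase of exon (SD, n = 3) against 117 ± 39.5 in AT2CAB, with a log2 fold change of -0.43 ± 0.23 (SE, adjusted p = 0.598). *Pmvk*, the phosphomevalonate kinase, was the single enzyme above 0, with 183, 165 and 170.5 CPM in AT2CTRL and 147, 129 and 281 CPM in AT2CAB (log2 fold change 0.10, 95% interval -0.51 to 0.72). Its sign rests on AT2CAB replicate 3, the highest of the 6 libraries for *Pmvk*, without which the log2 fold change was -0.28. Leaving out the same library moved *Mvk* to -0.18, *Mvd* to -0.23 and *Fdps* to -0.16. These 3 genes, within the 4 libraries without Y-linked reads, were at -0.20, -0.29 and -0.16.

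All 11 enzymes from squalene synthase to the last reduction had a log2 fold change below 0, with a median of -0.43, although that of *Ebp* was -0.015 and turned above 0 under other scalings. *Fdft1*, the squalene synthase (chr14:63145151-63179578), had the tightest difference of the enzymes. It had 126, 132 and 140.2 CPM in AT2CTRL and 103, 97.8 and 88.6 CPM in AT2CAB, 133 ± 7.31 against 96.5 ± 7.34 (SD, n = 3), and the log2 fold change was -0.46 ± 0.11 (SE, adjusted p = 0.23). No AT2CAB library reached the lowest control. Exons of *Fdft1* share 20.9% of their length with *Ctsb*, and the counting left out reads on such stretches. *Msmo1*, the methylsterol oxidase (chr8:64718145-64733578) with a pair of CCAAT boxes in the stretch above, had the largest negative log2 fold change of the 32 genes, -0.79 ± 0.27 (SE, adjusted p = 0.416). Its values were 119.8, 136 and 145 CPM in AT2CTRL and 102, 87.1 and 43.7 CPM in AT2CAB, with AT2CAB replicate 3 at less than every other library by a wide margin. Without that library the log2 fold change of *Msmo1* was -0.47 and that of *Fdft1* -0.37, and in the 4 libraries without Y-linked reads they were -0.54 and -0.41.

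Squalene epoxidase (*Sqle*) had 117, 171 and 194 CPM in AT2CTRL and 149, 121 and 64.8 CPM in AT2CAB, a log2 fold change of -0.53 ± 0.30 (SE, adjusted p = 0.614). The groups overlapped, since AT2CTRL replicate 1 lay below 2 of the AT2CAB libraries. *Cyp51*, the lanosterol demethylase, had a log2 fold change of -0.54 ± 0.25 (SE, adjusted p = 0.535), and *Hsd17b7*, a ketosteroid reductase of the pathway, of -0.63 ± 0.28 (SE, adjusted p = 0.526). For both, the interval just reached 0 before adjustment (-1.10 to 0.027 and -1.27 to 0.012). The remaining enzymes, *Lss*, *Tm7sf2*, *Nsdhl*, *Sc5d* and *Dhcr7*, had log2 fold changes from -0.43 to -0.16 and overlapping groups. Without AT2CAB replicate 3 the log2 fold change was -0.22 for *Sqle*, -0.29 for *Cyp51* and -0.36 for *Hsd17b7*, and that of the 5 remaining enzymes lay between -0.14 (*Nsdhl*) and 0.029 (*Tm7sf2*). *Sqle*, *Cyp51* and *Hsd17b7* were at -0.41, -0.47 and -0.55 in the 4 libraries without Y-linked reads. Per length, enzyme levels in AT2CTRL ranged from 7.07 CPM per kilobase for *Hsd17b7* to 158 for *Fdps*, with *Pmvk* next at 115.

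**Figure D2:**
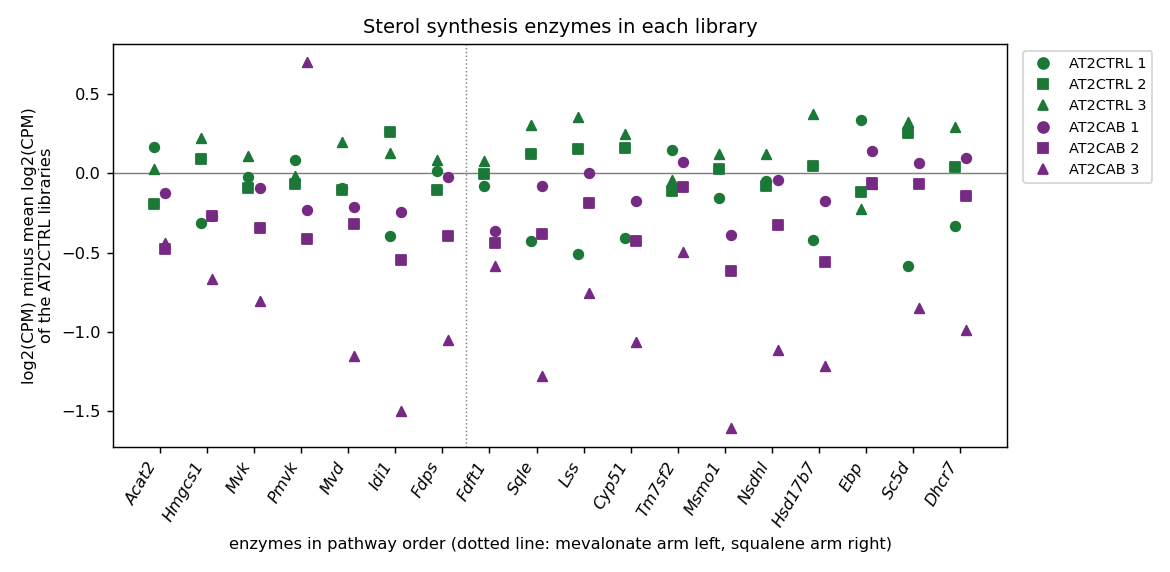
Level of the 18 enzymes in each library, as log2(CPM) minus the mean of the 3 AT2CTRL libraries (vertical axis), in pathway order (horizontal axis); colors are the groups and symbols the replicates. AT2CAB replicate 3 is the lowest library for 15 of the 18 enzymes, against 26.8% of all genes tested. AT2CTRL replicate 1 lies below the other controls for 10 of the 18, against 37.0% of all genes tested.

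The libraries took a similar order in most enzymes. Relative to the AT2CTRL mean, the median log2 level of the 18 enzymes was -0.12, 0.014 and 0.13 in the controls and -0.11, -0.36 and -0.92 in AT2CAB replicates 1, 2 and 3. AT2CAB replicate 1 was thus close to the lowest control, and AT2CAB replicate 3 far below all others. That library was the lowest of the 6 for 15 of 18 enzymes, against 26.8% of all genes tested. The median log2 fold change of the enzymes was -0.42 with all libraries, -0.23 without AT2CAB replicate 3 and -0.52 without AT2CTRL replicate 1. Within the 4 libraries without Y-linked reads it was -0.27, and in the remaining pair, 1 library of each group, the median log2 ratio was -0.66 with no test. In the 4 libraries 16 of the 18 enzymes were below 0, and in the pair 17. With counts scaled by library size only, the median of the enzymes was -0.29 and that of all genes 0.12. AT2CAB replicate 3 also had the highest BMP response, as given above, and the lowest AT2 marker sum, 97511 CPM, and the part of these in the enzyme levels was not tested.

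Of the genes that control SREBP2, both INSIG genes were below every control value in all AT2CAB libraries. *Insig1*, itself a known SREBP2 target (chr5:28071412-28078662) whose promoter stretch above holds the E-box, had 355, 477 and 455 CPM in AT2CTRL and 337, 288 and 273 CPM in AT2CAB, and the log2 fold change was -0.52 ± 0.16 (SE, adjusted p = 0.352). *Insig2* (chr1:121304353-121332589) had 61.1, 59.5 and 57.6 CPM in AT2CTRL and 50.8, 44.2 and 41.3 CPM in AT2CAB, with a log2 fold change of -0.39 ± 0.12 (SE, adjusted p = 0.348). The control values of *Insig2* lay close together, and the lowest stood clear of the highest AT2CAB value. Per length, *Insig1* was the more abundant of the pair in AT2CTRL, at 162 ± 24.5 CPM per kilobase against 20.1 ± 0.594 for *Insig2* (SD, n = 3). *Srebf2*, which encodes SREBP2, had 394, 552 and 524 CPM in AT2CTRL and 481, 382 and 309 CPM in AT2CAB, overlapping ranges with a log2 fold change of -0.33 ± 0.20 (SE, adjusted p = 0.637) that was -0.15 without AT2CAB replicate 3. *Scap*, the escort protein of SREBP2, had a log2 fold change of 0.088 with a 95% interval of -0.19 to 0.37, which leaves room for a change of that size in either direction. In the 4 libraries without Y-linked reads the log2 fold change was -0.54 for *Insig1* (adjusted p = 0.058 from edgeR) and -0.27 for *Insig2* (adjusted p = 0.281 from edgeR).

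**Figure D3:**
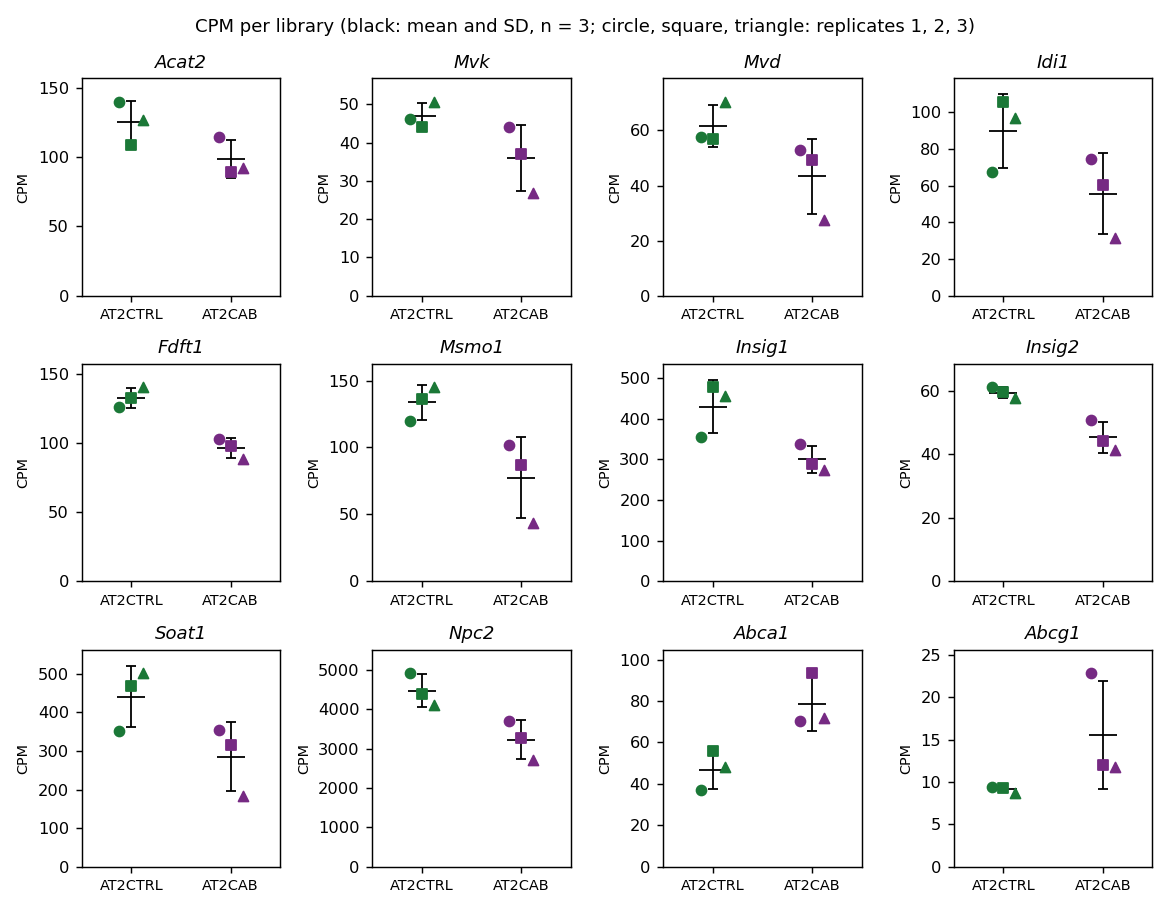
CPM in each library (vertical axes start at 0) for the 12 genes with an unadjusted p under 0.05 or groups that do not overlap; points are libraries, black bars the mean and SD of each group (n = 3). *Insig2* and *Fdft1* show a gap between the groups, *Mvk* nearly none, and *Abcg1* has 1 AT2CAB library at 22.9 CPM, far from the other two.

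Among the genes of esterification and transport, *Npc2* was by far the most abundant of the 32 genes per length. It encodes the soluble lysosomal protein that hands cholesterol to NPC1, and had 1372 ± 128 CPM per kilobase in AT2CTRL against 989.8 ± 149.9 in AT2CAB (SD, n = 3). Its CPM values were 4925, 4401 and 4099 in AT2CTRL and 3693, 3275 and 2718 in AT2CAB, with no overlap, and the log2 fold change was -0.47 ± 0.17 (SE, adjusted p = 0.445). *Soat1*, which esterifies cholesterol for storage, had 351, 468 and 502 CPM in AT2CTRL and 354, 316 and 185 CPM in AT2CAB, a log2 fold change of -0.63 ± 0.25 (SE, adjusted p = 0.472). AT2CTRL replicate 1 lay within the AT2CAB range for this gene, and without AT2CAB replicate 3 the log2 fold change of *Soat1* was -0.36. In the 4 libraries without Y-linked reads *Npc2* was at -0.25 and *Soat1* at -0.50. *Npc1*, the lysosomal membrane partner of NPC2, overlapped between the groups (log2 fold change -0.23, 95% interval -0.70 to 0.25). The cytosolic sterol carrier gene *Stard4* did so as well, with 29.6, 58.9 and 61.8 CPM in AT2CTRL and 46.5, 36.4 and 25.1 CPM in AT2CAB (log2 fold change -0.48, 95% interval -1.18 to 0.22). Without AT2CAB replicate 3 these 2 genes were at -0.023 and -0.24. *Lipa*, the lysosomal acid lipase, was the rarest of the 5 at 2.28 ± 0.649 CPM per kilobase in AT2CTRL. It had 5.20, 8.92 and 6.17 CPM in AT2CTRL and 12.1, 9.89 and 6.48 CPM in AT2CAB, overlapping groups with a log2 fold change of 0.49 ± 0.29 (SE, adjusted p = 0.626), and the highest value was that of AT2CAB replicate 1. The log2 fold change of *Lipa* was 0.74 without AT2CAB replicate 3 and 0.30 without replicate 1.

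The sterol exporters *Abca1* and *Abcg1* had higher values in every AT2CAB library than in any control. These 2 of 32 genes are 6.25%, a share close to the 7.0% of all genes. *Abca1*, which exports cholesterol to apolipoproteins (chr4:53030789-53159895), had 36.9, 55.8 and 48.0 CPM in AT2CTRL and 70.6, 93.6 and 71.9 CPM in AT2CAB, 1.68-fold higher in the fit. Its log2 fold change of 0.75 ± 0.18 (SE, adjusted p = 0.23) shared the lowest adjusted p of the 32 genes with *Fdft1*, and stayed between 0.60 and 0.88 with each library left out in turn. DESeq2 gave *Abca1* a log2 fold change of 0.76 with an adjusted p of 0.0312, the only one of the 32 genes under 0.05 in that test, with a fold change under 2. In the 4 libraries without Y-linked reads it was 0.70 (adjusted p = 0.0982 from edgeR), and the log2 ratio of the remaining pair was 0.96. *Abcg1*, which exports cholesterol to lipoprotein particles (chr17:31057694-31117981), had 9.37, 9.34 and 8.76 CPM in AT2CTRL and 22.9, 12.0 and 11.8 CPM in AT2CAB. Its log2 fold change was 0.76 ± 0.26 (SE, adjusted p = 0.416), 0.40 without AT2CAB replicate 1 and 0.97 in the 4 libraries without Y-linked reads.

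Both exporters are also expressed by macrophages, and the sum of 8 leukocyte markers was highest in the library that was highest for *Abcg1*. A list of 10 leukocyte markers held *Lyz1* and *Cd74*, which AT2 cells express as well. All 10 summed to between 4870 and 6309 CPM in AT2CTRL and between 4793 and 5129 CPM in AT2CAB. *Lyz1* had 2092, 1920 and 2626 CPM in AT2CTRL and 1243, 1140 and 255 CPM in AT2CAB replicates 1, 2 and 3. Its log2 fold change was -1.33, and it alone of the 10 was lower at an unadjusted p under 0.05 with edgeR. That of *Cd74* was 0.22. The other 8 summed to 77.3, 81.2 and 85.3 CPM in AT2CTRL and to 189, 108 and 59.2 CPM in AT2CAB replicates 1, 2 and 3. Of these 8, 7 had a log2 fold change above 0 and 0 were called, with 0 at an unadjusted p under 0.05. *Chil3*, a gene of macrophages, was at 77.0 CPM in AT2CAB replicate 1 and at most 31.5 CPM elsewhere, and *Marco* was at or under 1.74 CPM in every library. *Abca1* had its highest value in replicate 2, where endothelial markers were highest as well (sum of 6 markers from 349.7 to 578 CPM in AT2CAB, against 174 to 411 in AT2CTRL). All 6 endothelial markers had a log2 fold change above 0, 3 of them at an unadjusted p under 0.05, and 0 were called. Of 6 mesenchymal markers 5 had a log2 fold change above 0, and 0 were called. With edgeR 2 of the 6 were higher and 1 was lower at an unadjusted p under 0.05. Their sums ran from 287 to 381 CPM in AT2CTRL and from 259.9 to 322 in AT2CAB. The marker below 0 was *Plin2*, the largest part of every sum, at 178 to 257 CPM in AT2CTRL and 107 to 171 in AT2CAB. The sums thus do not show the direction of the other 5 markers. The collagen genes *Col1a1* and *Col1a2* lay above every control in all AT2CAB libraries, at 44.2 to 51.8 CPM against 25.7 to 31.8 for *Col1a1* and at 51.0 to 61.9 CPM against 33.0 to 39.5 for *Col1a2*. In AT2CAB replicate 3, where the sum of the 8 leukocyte markers was below every control, *Abca1* and *Abcg1* had 71.9 and 11.8 CPM. The part of these cell types in the exporter values was not tested. In RNA from sorted populations, more cells of another type and more RNA per AT2 cell cannot be told apart.

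The LXR genes themselves had log2 fold changes near 0. *Nr1h2* (LXRβ) had 119, 115 and 123 CPM in AT2CTRL and 121, 121 and 110.5 CPM in AT2CAB, a log2 fold change of -0.021 with a 95% interval of -0.26 to 0.22. For *Nr1h3* (LXRα) it was 0.12 with an interval of -0.20 to 0.43. Per length, *Nr1h2* stood at 58.8 ± 2.02 and *Nr1h3* at 15.4 ± 2.05 CPM per kilobase in AT2CTRL (SD, n = 3). *Mylip*, an LXR target that marks lipoprotein receptors for degradation, had 20.2, 16.4 and 19.3 CPM in AT2CTRL and 21.9, 16.8 and 24.8 CPM in AT2CAB, overlapping groups with a log2 fold change of 0.18 ± 0.17 (SE, adjusted p = 0.752).

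**Figure D4:**
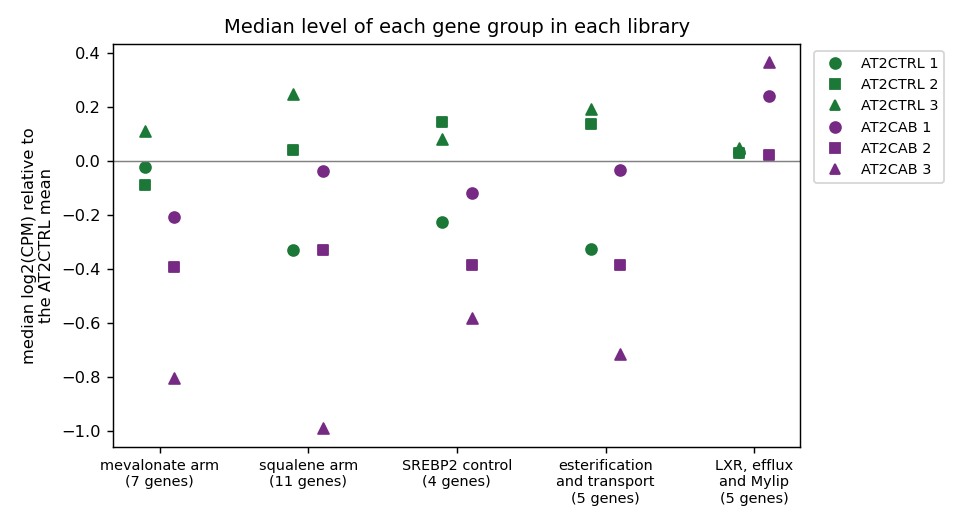
Median log2 level of each gene group in each library relative to the AT2CTRL mean (vertical axis), for 5 groups of genes by role (horizontal axis). AT2CAB replicate 3 is lowest in the first 4 groups, at -0.99 for the squalene arm, and highest, at 0.36, in the LXR and efflux group.

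A further list of 54 genes of the same pathways was examined, of which 53 were in the table and all 53 were tested. Among these 0 were called by edgeR and 0 by DESeq2, 1 was higher and 3 were lower at an unadjusted p under 0.05, and the groups did not overlap for 2 genes above and 8 below the controls. As shares of the 53, these are 1.89% and 5.66% by p, against 4.62% and 5.05% of all genes, and 3.77% and 15.1% by overlap, against 7.0% and 10.1%. The median log2 fold change of the list was -0.073, nearer to that of all genes than the -0.37 of the 32. *Scp2*, a peroxisomal sterol carrier, had 464, 453 and 470.3 CPM in AT2CTRL and 364, 328 and 267 CPM in AT2CAB, a log2 fold change of -0.53 ± 0.14 (SE, adjusted p = 0.287). *Nceh1*, which hydrolyzes cholesterol esters, had 126, 126 and 95.4 CPM in AT2CTRL and 88.3, 67.3 and 40.6 CPM in AT2CAB (log2 fold change -0.83 ± 0.26, adjusted p = 0.368). Both genes were below every control in each AT2CAB library. In the 4 libraries without Y-linked reads *Scp2* was at -0.38 and *Nceh1* at -0.48, and without AT2CAB replicate 3 *Nceh1* was at -0.54. The lipid transfer gene *Stard5* was also lower without overlap (log2 fold change -0.35 ± 0.12, adjusted p = 0.424), as were *Ggps1*, *Osbpl9*, *Gramd1c*, *Tmem97* and *Sult2b1*, with log2 fold changes from -0.40 to -0.21. The apolipoprotein gene *Apoc1* had 68.3, 43.2 and 38.4 CPM in AT2CTRL and 62.0, 81.1 and 76.7 CPM in AT2CAB (log2 fold change 0.55 ± 0.22, adjusted p = 0.473), with 1 control within the AT2CAB range, and 0.85 in the 4 libraries.

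*Srebf1*, which encodes the related factor SREBP1, had 559, 569.8 and 661 CPM in AT2CTRL and 706, 685 and 718 CPM in AT2CAB, above every control in all 3 libraries (log2 fold change 0.24 ± 0.13, adjusted p = 0.601). *Osbpl5*, an oxysterol-binding protein gene, was the other gene above every control (log2 fold change 0.27 ± 0.13, adjusted p = 0.559).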

How the data were processed

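The deposited table holds raw read counts per gene, which the authors made by trimming, aligning to mm10 with Hisat2, removing duplicates and counting on exons with featureCounts 1.5.3, without normalization. Per the file headers neither strand nor the paired-end option was used, and reads that hit overlapping genes were discarded. Of all counts from 1 to 20, 56.9% to 60.8% were even, as when both mates of a fragment count, which makes low counts look more precise than they are. Groups and replicate numbers came from the labels, which do not name the animals. Within each group the libraries differ in age or in Y-linked reads, so they are not repeat libraries of 1 mouse. The p-values measure the spread between these libraries, in which animal and technical differences cannot be told apart. Libraries of a group differed by more than counting noise and were kept apart.

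Counts were fitted over all genes with edgeR 4.0.16 in R 4.3.3 (TMM scaling, filterByExpr at its default count of 10, and the quasi-likelihood test, with p-values adjusted by Benjamini-Hochberg over all genes), and the adjusted p-values in the text are from that test unless DESeq2 is named. Calls needed a fold change over 2 and an adjusted p under 0.05. DESeq2 1.42.0, which the methods name, was an alternative, with other scalings, no filter, age as a covariate, halved counts, 4 libraries and each library left out. The scripts were tested on simulated data. Standard errors are the log2 fold change divided by the square root of F. Levels per length divide CPM by the deposited exon length. The 32 genes, the lists and the marker genes were chosen with earlier results of these data known. Genes with an unadjusted p under 0.05 or no overlap, and 7 key genes, are given with full statistics. The further list held 54 genes. Promoters are RefSeq's.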

Additional observations from a re-analysis of the deposited data

How the results depend on the processing

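Of the 32 genes 0 were called under every alternative, and the median log2 fold change of the 18 enzymes stayed below 0, from -0.52 to -0.23 with 1 library left out. The number of sterol genes lower at an unadjusted p under 0.05 was 8 and ran from 2 without AT2CAB replicate 2 to 17 in the 4 libraries without Y-linked reads. The cause was not tested. Over all genes, 38 were called higher and 2 lower. The number lower was 1 with library size only, 5 without a filter, 1 with age and 8 in the 4 libraries. DESeq2 called 119 higher and 25 lower. With 1 library left out, 6 to 59 were higher and 0 to 4 lower.

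Deviations of same-numbered libraries from their group means correlated at -0.34, 0.27 and -0.52 for replicates 1, 2 and 3. Deviations from a mean of 3 libraries are tied to each other, so these values cannot show whether same-numbered libraries were prepared together. Under a replicate block, 36 genes were called higher and 5 lower, none of them a sterol gene, and the enzyme median was -0.44.

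The sign turned for 5 genes near 0. *Ebp* was at 0.014 with relative log expression size factors, 0.11 with library size only, 0.0023 in DESeq2, 0.0021 with the block, 0.0018 with halved counts, 0.24 in the 4 libraries, and from -0.13 to 0.17 with 1 library left out. *Nr1h2* was at 0.0053, 0.11 and 0.055 under the first, second and last of these settings, and from -0.051 to 0.058. In the 4 libraries *Pmvk* was at -0.25 and *Tm7sf2* at 0.10. With 1 library left out *Pmvk* ran from -0.28 to 0.32, *Tm7sf2* from -0.25 to 0.029 and *Scap* from -0.0065 to 0.15.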

Other observations

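Several genes of sterol handling that are best known from other organs were near the lower end of the range in both groups, and are given here as values chosen after they were seen. *Cyp46a1*, the cholesterol hydroxylase of neurons, had 0.359, 0.943 and 0.343 CPM in AT2CTRL and 0.825, 0.737 and 1.43 CPM in AT2CAB. The oxysterol-forming hydroxylase gene *Ch25h* had 0.807, 0.471 and 0.914 CPM in AT2CTRL and 1.65, 0.621 and 1.17 CPM in AT2CAB. *Soat2*, the esterifying enzyme of liver and intestine, had 3.09, 0.471 and 1.03 CPM in AT2CTRL and 1.74, 0.621 and 3.48 CPM in AT2CAB. *Abcg4*, an exporter related to *Abcg1*, had 0.762, 0.257 and 0.457 CPM in AT2CTRL and 0.825, 0.31 and 1.56 CPM in AT2CAB. For each of the 4 genes the groups overlapped.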
